A study of Mus musculus with 6 samples.

Results

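The genes described here are 29 that encode subunits of the Polycomb complexes PRC1 and PRC2 and of PR-DUB, the Polycomb deubiquitinase. They were taken by name from the table of 24063 gene symbols, where all 29 were found, and all 29 were among the 13679 symbols that passed the filter on low counts. RNA was sequenced from mouse bone marrow LSK cells, which lack lineage markers and carry Kit and Sca1, the fraction of marrow in which stem and early progenitor cells are found. The 3 libraries labelled knockout come from mice with floxed Arid2 alleles (flfl in the titles) and the MxCre transgene. The 3 control libraries come from mice with wild-type Arid2 (wt in the titles) and MxCre. All mice had the C57/BL6 background, were injected with pIpC at 6 to 8 weeks of age, and gave cells 6 weeks later. Both groups therefore carried the transgene and received pIpC, an RNA analogue that induces interferon and with it the Mx1 promoter that drives Cre. That promoter answers to interferon in many cell types, so deletion is not restricted to stem cells. The labels do not say whether each library is 1 animal, so each p-value reflects only how far these libraries differ among themselves. That spread may be technical, though in controls it includes a difference of sex, given below.

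Polycomb complexes keep genes silent through 2 histone marks. PRC2 methylates a lysine of histone H3 through Ezh1 or Ezh2, with Eed and Suz12 as the other core subunits. PRC1 attaches ubiquitin to histone H2A through Ring1 or Rnf2, and exists as canonical forms, which read the PRC2 mark through a Cbx protein, and variant forms with Rybp or Yaf2. PR-DUB, made of Bap1 with an Asxl protein, removes that ubiquitin. In blood, Bmi1 is known for the self-renewal of stem cells, and Ezh2 and Asxl1 are recurrently mutated in human myeloid disease. Arid2 is a subunit of PBAF, one of the SWI/SNF remodellers of chromatin, and SWI/SNF and Polycomb were first described as opponents in the fly.

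Libraries held 12408966 to 28185678 counted reads, and the members had 141 to 5222 reads per library. Arid2 itself had 162, 150 and 155 CPM (read counts brought to a common library size with TMM scaling) in the libraries labelled knockout, against 165, 154 and 148 CPM in controls. These counts do not show whether Arid2 was deleted, and a gene-level count can miss the loss of part of a gene. The groups are therefore called by their labels, and every direction rests on these. Xist RNA was high (1919 to 2021 CPM) in each library labelled knockout and in control replicate 2, while control replicates 1 and 3 had 6.3 and 11.4 CPM and Y-linked RNA. Sex and group are thus unequal, and once sex is in the fit, the group difference rests on 1 female control. Kit averaged 439 ± 11.0 CPM against 557 ± 86.1 CPM in controls (SD, n = 3 each) and did not pass (edgeR adjusted p = 0.0814). Ly6a, which encodes Sca1, averaged 13.5 ± 1.6 against 20.02 ± 2.1 CPM and passed as lower (edgeR adjusted p = 0.0378). Ly6a was far below Kit in both groups in CPM, which do not account for gene length. The log2 fold changes were -0.34 for Kit and -0.56 for Ly6a, and -0.17 and -0.52 with a sex term. Of markers of other cells, 6 of 13 neutrophil genes (Cd177, Ltf, Lcn2, Ifitm6, Itgam and Ngp) passed as higher in the libraries labelled knockout and 0 as lower, the list summing to 7457 to 9531 CPM against 3100 to 5938 CPM in controls. Likewise 5 of 12 monocyte and macrophage genes were higher (Marco, Lyz2, Ccr2, Csf1r and Cd68), with list sums of 2729 to 3329 CPM against 1576 to 1920 CPM, and 5 of 10 erythroblast genes (Hbb-bs, Hba-a1, Alas2, Hbb-bt and Slc4a1), with 136 to 402 CPM against 67.0 to 194 CPM. Of 10 B and T cell genes 2 were lower (Cd79b and Lat), with sums of 271 to 336 CPM against 240.1 to 308 CPM. The marker calls are those of the fit by group alone, and no values with the sex term are given for these genes. None of these markers was at 0 in every library. Their part in the results below was not tested, and in RNA from pooled cells fewer cells of a type and less RNA per cell cannot be told apart.

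Cbx6 and Cbx2, chromobox genes of canonical PRC1, were lower in the libraries labelled knockout, and no other member passed the test (edgeR quasi-likelihood test, adjusted p under 0.05 over all genes tested). That is 2 of 29 members, or 6.9%, both lower, where 8.42% of all genes tested were called, 4.58% lower and 3.85% higher. The share is near the background. No member was called higher by edgeR, DESeq2 or limma-voom. At an unadjusted p under 0.05 there were 8 members lower and 1 higher, 31.0% of the members against 24.9% of all genes, and 27.6% against 12.7% for lower alone. The groups did not overlap for 11 members, 37.9% against 31.2% of all genes, and 10 of these 11 were lower in the libraries labelled knockout, 34.5% of the members against 16.1% of all genes. The median log2 fold change of the members was -0.06, with -0.00 over all genes tested. With the sex term 0 members were called by edgeR, where 0.314% of all genes were, and 2 members had an unadjusted p under 0.05, Cbx6 and Phf19, where 11.9% of all genes did.

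**Figure D1:**
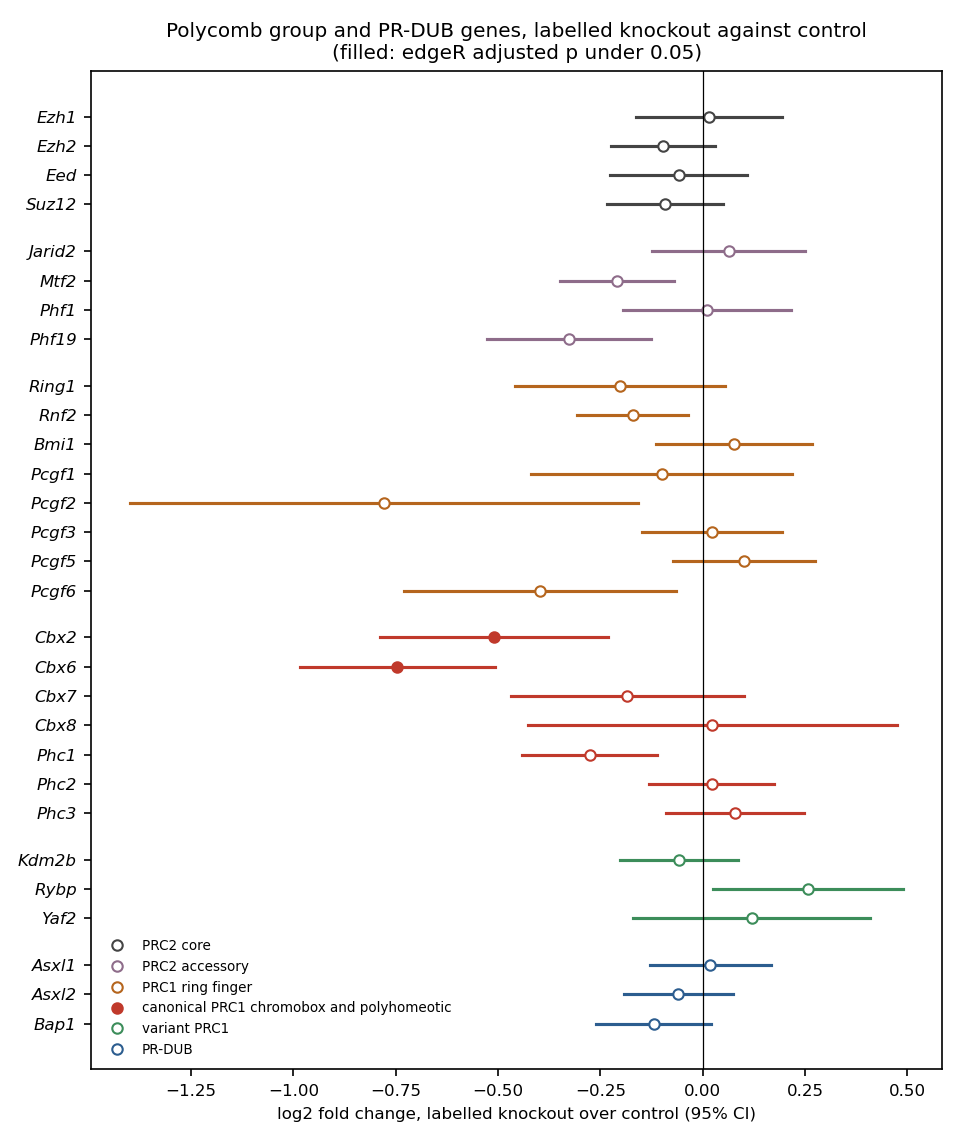
Log2 fold change, labelled knockout over control, of the 29 members with the 95% confidence interval, by complex (vertical axis, 1 row a gene; n = 3 libraries a group; filled points have an edgeR adjusted p under 0.05). Cbx6 (-0.75) and Cbx2 (-0.51) are the filled points, and Pcgf2 (-0.78) has the widest interval.

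Among the core subunits of PRC2, none passed the test. Ezh2, the main methyltransferase of dividing cells, had 171, 169 and 173 CPM in the libraries labelled knockout, against 187, 177 and 185 CPM in controls. The groups did not overlap, but the difference was small, with a log2 fold change of -0.10 (SE 0.06, edgeR adjusted p = 0.323) and a level of 93.5% of control (95% CI 85.6% to 102.1%). Ezh1, the paralogue with weaker catalytic activity that persists in resting cells, had 55.9, 56.3 and 57.1 CPM, against 55.9, 50.9 and 61.1 CPM in controls. Its control libraries lay on both sides of those labelled knockout. Suz12, the scaffold subunit, had 179, 171 and 181 CPM against 199.7, 186 and 181.1 CPM (log2 fold change -0.09, SE 0.06). Eed, which binds the methylated lysine, had 87.4, 91.3 and 89.6 CPM against 101, 92.8 and 85.3 CPM (-0.06, SE 0.07). For Eed and Suz12 the lower bounds of the interval in the fit by group alone were 85.5% and 85.03% of control. Larger decreases than these lie outside the interval of that fit only. With the sex term the log2 fold changes were -0.05 (SE 0.11) for Eed and -0.07 (SE 0.09) for Suz12.

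Per length, the core genes except Ezh1 were among the most abundant members. In CPM per kb of exon, Suz12 averaged 35.8 ± 1.0 in the libraries labelled knockout and 38.2 ± 2.0 in controls (SD, n = 3 each). Ezh2 averaged 25.6 ± 0.33 and 27.4 ± 0.84, and Eed 23.4 ± 0.51 and 24.3 ± 2.1 CPM per kb. Ezh1 stood at 7.6 ± 0.084 and 7.5 ± 0.68 CPM per kb, so its share of the Ezh1 and Ezh2 sum was 22.9% ± 0.14 in the libraries labelled knockout and 21.5% ± 1.2 in controls. Lengths are those of all annotated exons merged, and with the longest transcript the Ezh1 share was 17.9% and 16.8%. The order of Suz12, Ezh2 and Eed also depended on the length used. Per kb of the longest transcript, controls averaged 65.6 CPM for Ezh2, 45.0 for Eed and 43.2 for Suz12.

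Among the accessory subunits that steer PRC2 to chromatin, Mtf2 and Phf19 had the lower values and Jarid2 and Phf1 were close to control. Mtf2, Phf19 and Phf1 are the Polycomb-like proteins, of which Mtf2 is known for binding CpG-rich DNA. Phf19 had 22.0, 22.2 and 20.3 CPM in the libraries labelled knockout, against 27.7, 27.3 and 26.1 CPM in controls. All 3 lay below every control, the female control included. The log2 fold change was -0.33 (SE 0.09, edgeR adjusted p = 0.0561), and -0.34 (SE 0.12, adjusted p = 0.354) with the sex term. Mtf2, the most abundant Polycomb-like gene, had 144, 133 and 141 CPM against 168, 157 and 159 CPM. Its groups did not overlap either, with a log2 fold change of -0.21 (SE 0.06, edgeR adjusted p = 0.0727). The value for Mtf2 was -0.17 (SE 0.09) with the sex term. In the fit by group alone both genes missed the threshold, and both passed it with upper-quartile scaling (edgeR adjusted p = 0.0465 for Mtf2 and 0.0474 for Phf19). Phf1 had 32.4 ± 1.9 against 32.3 ± 2.3 CPM (SD, n = 3 each), and Jarid2, which defines a separate form of PRC2, had 111, 101 and 100.1 CPM against 100.7, 108 and 90.0 CPM. Exons of Mtf2 and Phf1 overlap those of Tmed5 and Cuta on the other strand by up to 395 and 717 bases, and the sources used here do not say whether strand was used in counting.

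The catalytic pair of PRC1 is Ring1 and Rnf2. Rnf2, which encodes the main ubiquitin ligase, had 55.2, 53.9 and 55.5 CPM in the libraries labelled knockout, against 60.9, 61.0 and 63.3 CPM in controls. The 2 ranges were narrow and apart, with a log2 fold change of -0.17 (SE 0.06, edgeR adjusted p = 0.117). With the sex term the log2 fold change of Rnf2 was -0.15 (SE 0.09). Ring1 had 33.7, 37.8 and 34.5 CPM against 47.0, 39.8 and 35.3 CPM, where control replicate 3 lay inside the range of the libraries labelled knockout. Per length both stood close together, with 10.9 ± 0.68 and 12.5 ± 1.8 CPM per kb for Ring1 and 13.3 ± 0.20 and 14.96 ± 0.32 CPM per kb for Rnf2 (labelled knockout and control, SD, n = 3 each).

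The Pcgf proteins pair with Ring1 or Rnf2 and decide which form of PRC1 is built. Bmi1 and Pcgf2 belong to the canonical forms. Bmi1 had 56.7, 59.4 and 67.3 CPM in the libraries labelled knockout, against 54.0, 60.8 and 58.7 CPM in controls (log2 fold change 0.08, SE 0.08), with overlapping ranges. Pcgf2 had 8.1, 10.2 and 11.3 CPM against 17.2, 10.6 and 23.4 CPM. The female control lay among the libraries labelled knockout and both male controls stood above them. Its log2 fold change was -0.78 (SE 0.27, edgeR adjusted p = 0.118), and -0.10 (SE 0.25, adjusted p = 0.918) with the sex term. Without the female control the value was -1.03 and passed (edgeR adjusted p = 0.0277), so that call would rest on 2 male controls. It also passed with all 6 libraries in DESeq2 (adjusted p = 0.0304) and in edgeR with no filter on low counts (0.046).

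Among the Pcgf genes of variant PRC1, Pcgf6, whose protein joins E2f6 and Mga, had 15.2, 19.2 and 20.2 CPM in the libraries labelled knockout, against 21.0, 23.2 and 27.6 CPM in controls. The highest of the first and the lowest of the second were 0.7 CPM apart, and the log2 fold change of -0.40 (SE 0.15, edgeR adjusted p = 0.132) did not pass. With the sex term the log2 fold change of Pcgf6 was -0.35 (SE 0.21). Pcgf1, the partner of Kdm2b and Bcor, had 12.9 ± 0.66 against 13.9 ± 2.1 CPM (SD, n = 3 each). Pcgf3 had 38.5 ± 0.63 against 37.9 ± 1.8 CPM, and Pcgf5 48.6 ± 2.7 against 45.4 ± 2.4 CPM, with ranges that overlapped for all 3 genes. Bmi1 took the largest share of the 6 Pcgf genes per length, 40.9% ± 1.7 in the libraries labelled knockout and 36.4% ± 3.7 in controls, where the female control had 40.6%. With the longest transcript the lead was smaller, with 31.4% and 27.6% for Bmi1 and 26.1% and 25.9% for Pcgf1 (labelled knockout and control).

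The chromobox genes encode the subunits by which canonical PRC1 reads the PRC2 mark, and they held both calls. Cbx6 (chromosome 15, 79823896 to 79834688, minus strand, mm10) had 73.9, 80.9 and 79.6 CPM in the libraries labelled knockout, against 122, 118 and 154 CPM in controls. Every library labelled knockout lay well below every control, and the highest control was replicate 3. The level was 59.6% of control (95% CI 50.5% to 70.4%), a log2 fold change of -0.75 (SE 0.10, edgeR adjusted p = 0.0068). With the sex term the log2 fold change was -0.59 (SE 0.13), with an unadjusted p of 0.0024 and an adjusted p of 0.141, so the call was lost and the direction kept. Npcd, a gene on the same strand whose exons share up to 291 bases with Cbx6, was also lower, with 14.9, 17.5 and 17.3 against 26.1, 23.4 and 27.8 CPM (log2 fold change -0.64, edgeR adjusted p = 0.0155), and lost its call with the sex term (-0.50, adjusted p = 0.231). How reads of the shared exon were divided is not stated in the labels.

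Cbx2 (chromosome 11, 119022962 to 119031270, plus strand) had 21.6, 23.1 and 20.7 CPM in the libraries labelled knockout, against 28.8, 28 and 36.8 CPM in controls. The groups did not overlap, and control replicate 3 was again the highest. The level was 70.2% of control (95% CI 57.9% to 85.2%), a log2 fold change of -0.51 (SE 0.12, edgeR adjusted p = 0.0401). The call was lost without any 1 of the libraries labelled knockout, without control replicate 1 or without control replicate 3 (log2 fold change -0.48 to -0.56 for the first 4 and -0.38 for the last; adjusted p = 0.0681 to 0.109), with limma-voom (adjusted p = 0.0531), and with the sex term, where it was -0.36 (adjusted p = 0.431).

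The plot of fold changes with and without the sex term sets these genes beside the other members. For 14 of the 29 members the female control lay nearer the mean of the libraries labelled knockout than that of the male controls. Pcgf2 moved farthest between the 2 fits, whereas Phf19 had nearly the same value in both.

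**Figure D2:**
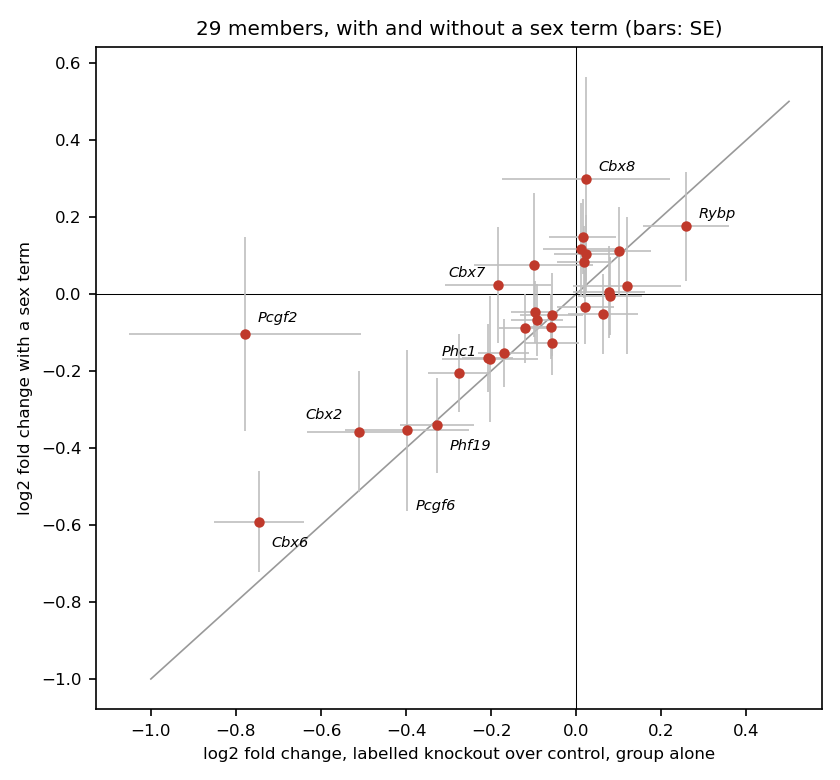
Log2 fold change, labelled knockout over control, of the 29 members by group alone (horizontal axis) and with a sex term (vertical axis); bars are standard errors and the grey line marks equal values. Phf19 (-0.33 and -0.34) lies on the line, Cbx6 (-0.75 and -0.59) somewhat above it, and Pcgf2 (-0.78 and -0.10) far from it.

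Cbx2 and Cbx6 each have chromobox neighbours on the chromosome, and these did not pass the test. Cbx8 (119036305 to 119040969) lies beside Cbx2 on chromosome 11 and had 12.2, 16.3 and 11.4 CPM in the libraries labelled knockout, against 16.4, 10.9 and 12.3 CPM in controls. Its interval was wide, 74.4% to 138.9% of control. Cbx7 (79915807 to 79971119), the chromobox gene best known for stem cell self-renewal, lies beside Cbx6 on chromosome 15. It had 30.0, 28.8 and 35.1 CPM against 35.2, 30.7 and 40.7 CPM (log2 fold change -0.18, SE 0.12), with overlapping ranges, and 0.02 (SE 0.15) with the sex term. Chromosome 15 also holds Arid2 (96287518 to 96404992) and Yaf2 (93284278 to 93336935).

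To set the called gene Cbx6 beside chromobox genes that did not pass, the promoters of Cbx6, Cbx7 and Cbx8 are given. Each is the 250 bases before a RefSeq transcript start on GRCm38.p6 (mm10), on the minus strand. For Cbx6 and Cbx7 that start lies inside the GENCODE gene bounds, which begin farther upstream, and the Cbx8 window straddles the GENCODE start. Capitals mark the GC box GGGCGG and the E-box CACGTG on either strand, which do not overlap here. The table used holds no Cbx2 window, and 25 of the 29 members had at least 1.
Cbx6, chr15:79834334-79834583: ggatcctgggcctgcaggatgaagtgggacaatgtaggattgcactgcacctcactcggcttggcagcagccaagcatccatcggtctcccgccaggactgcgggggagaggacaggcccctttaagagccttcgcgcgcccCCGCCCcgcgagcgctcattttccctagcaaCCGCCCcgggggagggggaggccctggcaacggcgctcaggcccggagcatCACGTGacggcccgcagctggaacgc
Cbx7, chr15:79932647-79932896: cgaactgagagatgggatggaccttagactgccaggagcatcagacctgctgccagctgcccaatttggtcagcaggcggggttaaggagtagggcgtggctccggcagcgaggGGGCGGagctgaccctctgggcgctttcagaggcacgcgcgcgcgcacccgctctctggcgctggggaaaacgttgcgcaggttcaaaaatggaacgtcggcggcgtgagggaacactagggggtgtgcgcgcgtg
Cbx8, chr11:119040914-119041163: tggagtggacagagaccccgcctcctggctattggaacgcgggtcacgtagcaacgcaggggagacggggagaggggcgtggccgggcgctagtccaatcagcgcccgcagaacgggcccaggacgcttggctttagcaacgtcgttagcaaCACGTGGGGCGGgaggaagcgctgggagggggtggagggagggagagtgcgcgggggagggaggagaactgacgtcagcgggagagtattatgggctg

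All 3 windows are rich in CpG, the dinucleotide that Polycomb target promoters are also rich in, with 20 in Cbx6, 23 in Cbx7 and 22 in Cbx8. The median was 22 over the 34 windows of the members and 6 over all 32851 windows. A GC box stood in 73.5% of the members' windows and 32.7% of all windows, and an E-box in 20.6% and 6.02%. Cbx6 and Cbx8 held an E-box and Cbx7 did not. A match is a description of letters and shows no binding.

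**Figure D3:**
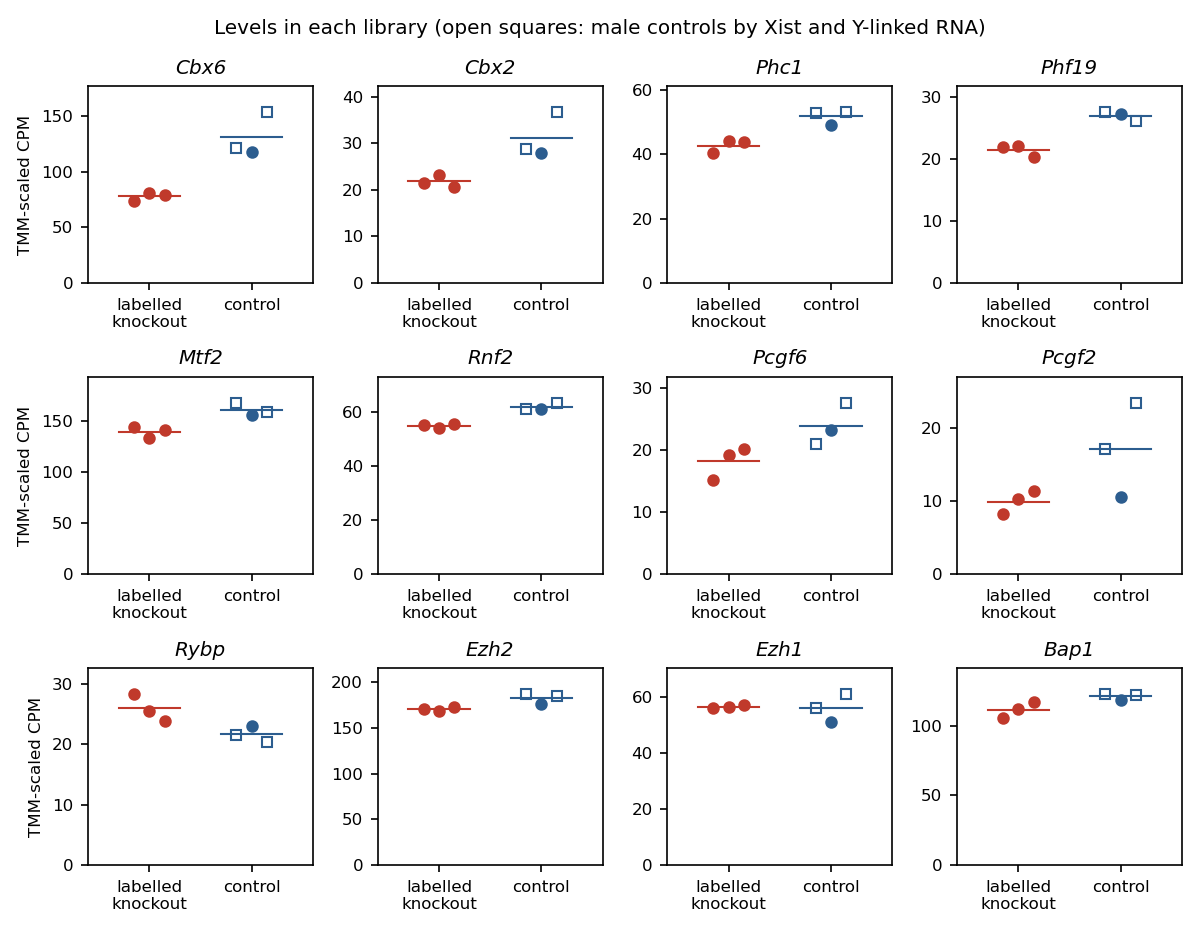
Level in each library (vertical axis, TMM-scaled CPM from 0) of 12 members, with libraries labelled knockout on the left and controls on the right of each panel; lines are group means and open squares the male controls. For Cbx6 the libraries labelled knockout sit at 73.9 to 80.9 CPM and the controls at 118 to 154 CPM, while the female control of Pcgf2 (10.6 CPM) sits among the libraries labelled knockout.

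The Phc genes encode the polyhomeotic subunits, whose SAM domains join canonical PRC1 complexes to one another. Phc1 had 40.3, 44.1 and 43.8 CPM in the libraries labelled knockout, against 52.9, 49.3 and 53.3 CPM in controls. The groups did not overlap, and the log2 fold change of -0.28 (SE 0.07, edgeR adjusted p = 0.0531) missed the threshold narrowly. It was -0.21 (SE 0.10, adjusted p = 0.483) with the sex term and passed with upper-quartile scaling (adjusted p = 0.0453). Phc2 had 70.4, 76.7 and 75.6 CPM against 68.8, 76.0 and 74.5 CPM, nearly the same in each group. Phc3 had 83.5 ± 5.1 against 79.0 ± 5.1 CPM (SD, n = 3 each).

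Of the genes of variant PRC1, Rybp was the one member with higher values at an unadjusted p under 0.05. Rybp, which links Ring1 or Rnf2 to the variant forms, had 28.4, 25.6 and 23.8 CPM in the libraries labelled knockout, against 21.6, 23.0 and 20.5 CPM in controls. Its groups did not overlap, by a margin of under 1 CPM, and the log2 fold change of 0.26 (SE 0.10, edgeR adjusted p = 0.157) did not pass. With the sex term the log2 fold change of Rybp was 0.18 (SE 0.14). Yaf2, its paralogue, had 39.1, 28.4 and 35.4 CPM against 31.7, 33.7 and 28.9 CPM, with overlapping ranges. Kdm2b, which brings the form with Pcgf1 to CpG-rich DNA, had 99.8 ± 3.7 against 104 ± 4.8 CPM (SD, n = 3 each).

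None of the PR-DUB members passed the test. Bap1, the deubiquitinase, had 105, 112 and 117 CPM in the libraries labelled knockout, against 123, 118 and 122 CPM in controls. Its groups did not overlap, with 117.0 CPM as the highest of the first and 118.4 CPM as the lowest of the second, and the log2 fold change was -0.12 (SE 0.06, edgeR adjusted p = 0.271). Asxl1, the partner known from clonal blood disease, had 194, 181 and 179 CPM against 180.3, 174 and 192 CPM, so its ranges overlapped. Asxl2 had 99.8 ± 3.9 against 104 ± 1.6 CPM (SD, n = 3 each). Per length Bap1 and Asxl1 were alike, with 23.8 ± 1.2 and 25.8 ± 0.49 CPM per kb for Bap1 and 24.8 ± 1.1 and 24.5 ± 1.2 CPM per kb for Asxl1 (labelled knockout and control). Asxl2 stood at 6.3 ± 0.24 and 6.5 ± 0.10 CPM per kb.

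For the 20 members with an unadjusted p of at least 0.05, log2 fold changes ran from -0.20 (Ring1) to 0.12 (Yaf2). In the fit by group alone, all 20 of their 95% intervals lay within 0.5 of 0 on the log2 scale, the widest being that of Cbx8. With the sex term Cbx8 stood at 0.30 (SE 0.26) on that scale, so the bound is that of the fit by group alone. The coefficient of variation within a group had a median of 5.1% over the members in the libraries labelled knockout and 6.1% in controls. It was larger in controls for 19 of 29 members, and reached 37.6% for Pcgf2 in controls and 20% for Cbx8 in the libraries labelled knockout.

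Paralogue balance was followed as the log2 ratio of the read counts of 2 paralogues or alternative subunits within each library, which does not depend on library scaling. Of 15 pairs, 4 had ratios that did not overlap between the groups, Cbx6 to Cbx7, Pcgf2 to Bmi1, Phc1 to Phc2 and Jarid2 to Mtf2. Among single genes, 31.2% of all tested did not overlap, and no such share was computed for ratios of other gene pairs. The count of 4 is therefore not read as a shift in paralogue balance. With 3 libraries against 3 the two-sided exact permutation test cannot give less than p = 0.1, and each of the 4 had that value (0.375 after Benjamini-Hochberg adjustment over the 15 pairs). The ratio of Cbx6 to Cbx7 was 1.30, 1.49 and 1.18 in the libraries labelled knockout, against 1.79, 1.94 and 1.92 in controls, on the log2 scale. The difference of -0.56 in the mean was -0.62 against the female control alone. Phc1 to Phc2 had -0.80, -0.80 and -0.79 against -0.38, -0.63 and -0.48, so the libraries labelled knockout were nearly identical. Against the female control alone its difference of -0.30 was -0.17.

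The other 2 pairs leaned more on the male controls. Pcgf2 to Bmi1 had log2 ratios of -2.80, -2.54 and -2.57 in the libraries labelled knockout, against -1.65, -2.52 and -1.33 in controls, and its difference of -0.80 was -0.12 against the female control alone. Jarid2 to Mtf2 had -0.37, -0.40 and -0.50 against -0.74, -0.54 and -0.82, with a difference of 0.28 that was 0.11 against the female control. The ratio of Ezh1 to Ezh2 had -1.61, -1.59 and -1.60 against -1.75, -1.79 and -1.60, with 1 control at the level of the libraries labelled knockout (exact permutation p = 0.3). The ratios of Ring1 to Rnf2 and of Phc3 to Phc2 differed by -0.03 and 0.06 in the mean (exact permutation p = 0.9 and 0.5), with overlapping ranges.

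**Figure D4:**
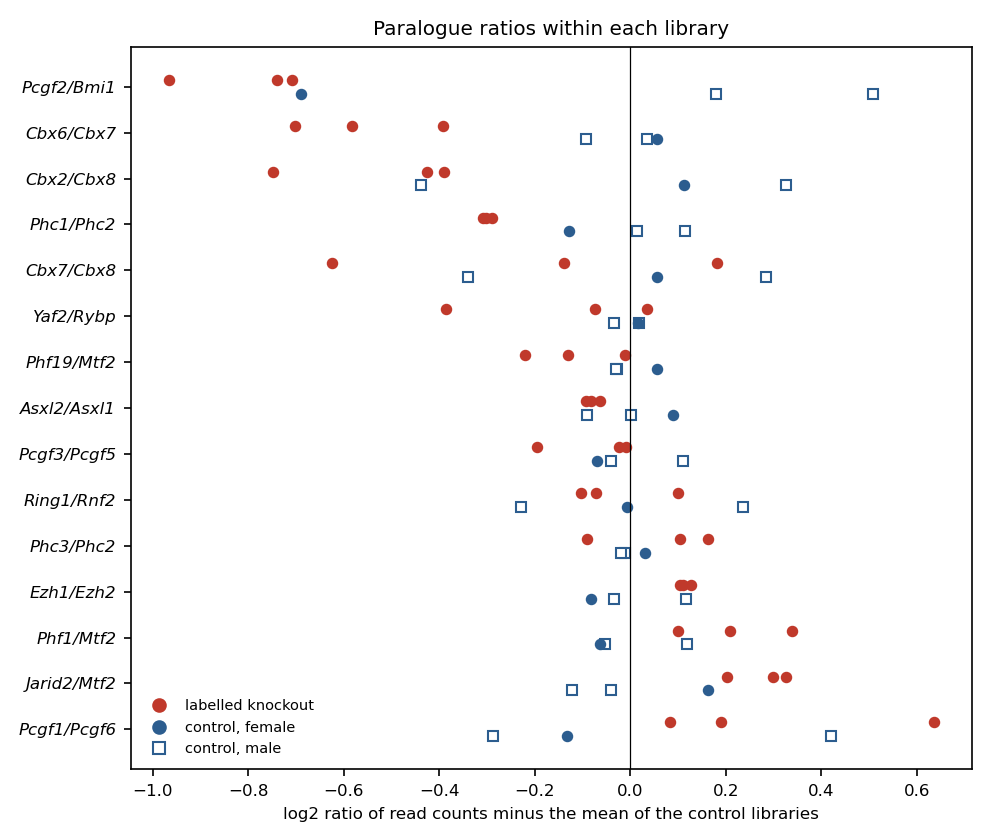
Log2 ratio of the read counts of 2 paralogues or alternative subunits in each library, less the mean of the control libraries (horizontal axis), for 15 pairs (vertical axis; circles labelled knockout in red and the female control in blue, open squares male controls). Cbx6/Cbx7 and Phc1/Phc2 separate the libraries labelled knockout from all 3 controls, whereas for Pcgf2/Bmi1 the female control sits beside them.

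The 4 chromobox members were also set against one another per length, as shares with no test. Cbx6 took 34.9%, 34.8% and 35.9% of their summed CPM per kb in the libraries labelled knockout, against 40.8%, 43.8% and 44.3% in controls. Cbx7 took 23.1%, 20.2% and 25.9% against 19.3%, 18.6% and 19.1%. Neither gene's ranges overlapped, with Cbx6 lower and Cbx7 higher in share. Shares sum to a whole, so a lower share of one gene raises the others, and the counts of Cbx7 itself did not pass the test. Cbx2 (24.5% ± 1.1 and 25.5% ± 1.2) and Cbx8 (17.2% ± 2.8 and 12.6% ± 2.9) had overlapping ranges (labelled knockout and control). Among the Phc genes the share of Phc1 was 34.5% ± 0.67 in the libraries labelled knockout and 39.7% ± 2.1 in controls (SD, n = 3 each).

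**Figure D5:**
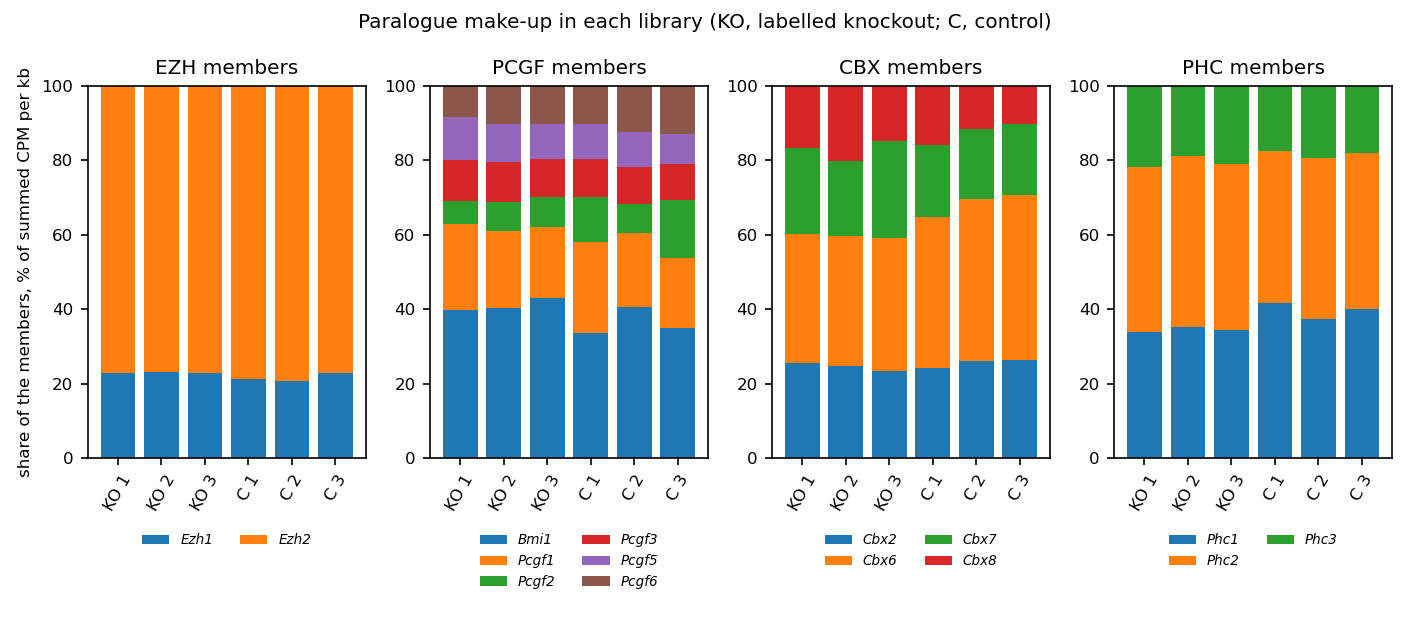
Share of each paralogue in the summed CPM per kb of the listed members of its family (vertical axis, percent) in the 3 libraries labelled knockout and the 3 controls (horizontal axis), for the EZH, PCGF, CBX and PHC families. The Cbx6 band spans 34.8% to 35.9% in the libraries labelled knockout and 40.8% to 44.3% in controls, and Ezh1 stays between 20.6% and 23.0% in all 6.

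Other genes of the pathway were taken from lists that were chosen with earlier results of these data known. Of 5 further PRC2 genes 1 was lower, 0 higher and 4 not past the test. This was E130012A19Rik, now named Epop, whose protein ties PRC2 to elongin proteins. It had 10.9, 11.3 and 9.7 CPM in the libraries labelled knockout, against 23.4, 22.8 and 19.6 CPM in controls. The groups were far apart and the female control was among the higher libraries. Its log2 fold change was -1.04 (SE 0.12, edgeR adjusted p = 0.00373), larger than that of any member, and -1.10 (SE 0.17, adjusted p = 0.0586) with the sex term. The PRC2 genes Aebp2 and Rbbp7 did not pass (log2 fold change -0.17 each).

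Of 18 further PRC1 genes 1 was lower and 17 were not past the test. Bcor, the corepressor of the Pcgf1 form, lies on the X chromosome and had 115, 132 and 124 CPM in the libraries labelled knockout, against 158, 154 and 172 CPM in controls (-0.38 on the log2 scale, SE 0.07; edgeR adjusted p = 0.0188). With the sex term it was -0.32 (SE 0.10, adjusted p = 0.285). The call was also lost without replicate 1 or 3 of the libraries labelled knockout or without control replicate 1 (adjusted p = 0.0549 to 0.0637). Its partners Pcgf1 and Kdm2b were given above and did not pass. Of 7 further PR-DUB genes tested, among them the cofactors Hcfc1 and Ogt, none passed by edgeR, and 0 had an unadjusted p under 0.05.

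Of 17 Trithorax and demethylase genes, which oppose Polycomb, 1 was lower and 16 did not pass. Kmt2c, a methyltransferase of enhancers, had 107, 118 and 122 CPM in the libraries labelled knockout, against 140.2, 144 and 145 CPM in controls (-0.31 on the log2 scale, SE 0.07; edgeR adjusted p = 0.029). It was -0.32 (adjusted p = 0.263) with the sex term. Its call was lost without control replicate 1, 2 or 3 or without replicate 1 or 2 of the libraries labelled knockout (adjusted p = 0.0512 to 0.0900). Kdm6a and Kdm6b, which remove the PRC2 mark, had log2 fold changes of 0.40 and 0.16 (edgeR adjusted p = 0.163 and 0.138). Kdm6a is X-linked and known to escape inactivation. The female control had 88.8 CPM of Kdm6a, within the 87.0 to 94.6 CPM of the libraries labelled knockout. Only the male controls were below that range, at 54.0 and 63.1 CPM.

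Of 26 genes known as Polycomb targets in blood or other tissues, 14 passed the filter on low counts, with 2 higher, 1 lower and 11 not past the test. Hmga2, a chromatin protein of fetal stem cells, had 11.7, 10.2 and 10.4 CPM in the libraries labelled knockout, against 22.1, 16.5 and 22.8 CPM in controls (-0.92 on the log2 scale, SE 0.15; edgeR adjusted p = 0.0117). The female control was the lowest of the controls, and the value was -0.61 (adjusted p = 0.182) with the sex term. Hoxb4, a homeobox gene of stem cells, had 28.1, 33.8 and 29.5 CPM against 18.4, 20.005 and 21.0 CPM (0.62, adjusted p = 0.0129), and 0.61 (adjusted p = 0.187) with the sex term. Hoxb5, at 5.2, 2.8 and 5.1 against 1.7, 1.8 and 1.7 CPM (1.34, adjusted p = 0.0318), lost its call in every fit that left out 1 library except that without replicate 2 of the libraries labelled knockout (adjusted p = 0.0602 to 0.101 where lost), with limma-voom (0.0634) and with the sex term (1.28, 0.344). Hmga2 and Hoxb4 lost theirs without replicate 2 of the libraries labelled knockout (adjusted p = 0.0595 each). Targets that passed the test thus included both higher and lower genes, and the median of the 14 was -0.10.

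Ezh2 and Eed are known E2F targets, so S phase genes were set beside them. Of 21, 3 were higher (E2f2, Ccne1 and Rrm2, log2 fold changes 0.83, 0.68 and 0.46, edgeR adjusted p = 0.00492, 0.0165 and 0.0307), 0 lower and 18 not past the test. With the sex term the values were 0.78, 0.65 and 0.34 (adjusted p = 0.123, 0.224 and 0.403). The log2 fold changes of all 21 were positive for 12 and negative for 9, with a median of 0.02. Ccne1 lost its call without replicate 2 of the libraries labelled knockout (adjusted p = 0.0576) or control replicate 1 (0.0524), and Rrm2 in 4 of the 6 fits that left out 1 library, those without control replicate 1 or any library labelled knockout (0.0639 to 0.0967).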

How the data were processed

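The authors deposited 1 table of raw read counts per gene symbol, with no normalization, for 3 libraries labelled knockout and 3 controls. Per the labels' protocols, TRIzol-extracted RNA went through poly(A) selection, and the library kit keeps strand. STAR and mm10 are named in the submitters' processing notes, but no counter, annotation or use of strand in counting is given in the sources used here. Of 24063 symbols, 4092 had no read. Libraries held 12408966 to 28185678 reads.

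The test was that of edgeR 4.0.16 (R 4.3.3): filterByExpr (minimum count 10, minimum total 15), TMM scaling, and a quasi-likelihood F test with the group as sole term, adjusted by Benjamini-Hochberg over 13679 symbols (threshold 0.05). SE is the log2 fold change over the root of F. CPM per kb uses merged exon lengths of GENCODE M21 (GRCm38), where 22782 symbols matched by name and 849 by a synonym. Simulated counts with known changes were used to check the fit. Libraries of a group differed by a chi-square per degree of freedom of at least 10.7, so none repeated another. Members, gene lists and pairs were chosen with earlier results of these data known.

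Values in every library are given for members with an unadjusted p under 0.05, for Ezh1, Ezh2 and Bap1, for pairs whose ratios do not overlap, and, as additions chosen after values were seen, for Suz12, Eed, Ring1, Cbx8, Npcd, Yaf2 and Asxl1. From other lists, genes past the threshold are named (those of sex aside), and Aebp2, Rbbp7, Kdm6a, Kdm6b, Hcfc1 and Ogt were added. 1 gene outside the members is not reported here. Exons of 12 members overlap another annotated gene. Alternatives were DESeq2 1.42.0, limma-voom (limma 3.58.1), other scalings and filters, a looser threshold (0.1), a sex term, X and Y genes left out, a block for the replicate number, leaving out each library and, chosen after seeing the data, female libraries alone.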

Additional observations from a re-analysis of the deposited data

How the results depend on the processing

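Cbx6 was lower with every alternative run and lost its call with the sex term and in the female libraries alone, and nowhere else. The members called were 2 with the fit as reported, and DESeq2 size factors, the stricter filter and leaving out X and Y genes gave the same count. They were 3 with DESeq2 and with no filter on low counts (Pcgf2 added), 5 with upper-quartile scaling and at an adjusted p under 0.1 (Mtf2, Phc1 and Phf19 added each time), 1 with limma-voom, 0 with the sex term, 0 in the female libraries alone, and 1 to 3 when a library was left out. Over all genes 1152 were called, 43 with the sex term, 39 in the female libraries alone, 2002 at an adjusted p under 0.1, and 290 (without replicate 2 of the libraries labelled knockout) to 984 (without control replicate 2) when a library was left out. The totals over all genes were 1668 with DESeq2, 1162 with upper-quartile scaling and 1102 with limma-voom, each of 13679 tested. With no filter on low counts the total was 1584 of 19971. With the replicate number as a block, 2172 genes and 6 members (Pcgf6 added to those 5) were called. The deviations of same-numbered libraries had correlations of 0.39, 0.01 and 0.41, and not every library correlated best with its own number, so the numbers were not taken as pairs. Non-overlapping paralogue ratios numbered 4, 4 to 7 when a library was left out, and 10 in the female libraries alone, where 1 control makes overlap less likely by construction. The median level of the members in controls was 9.56 CPM per kb of merged exons and 13.3 CPM per kb of the longest transcript.

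The values that changed sign all belonged to members that were not called. With upper-quartile scaling the log2 fold change was -0.0095 for Ezh1, -0.012 for Phf1, -0.00012 for Pcgf3, -0.0019 for Phc2 and -0.0053 for Asxl1. With the sex term and in the female libraries alone it was -0.053 and -0.055 for Jarid2, 0.075 and 0.073 for Pcgf1, 0.023 and 0.021 for Cbx7, -0.033 and -0.036 for Phc2, and -0.0061 and -0.0086 for Phc3. Leaving out a library gave -0.041 to 0.081 for Ezh1, -0.12 to 0.0037 for Eed, -0.0048 to 0.14 for Jarid2, -0.032 to 0.061 for Phf1, -0.18 to 0.027 for Pcgf1, -0.0078 to 0.043 for Pcgf3, -0.16 to 0.21 for Cbx8, -0.021 to 0.061 for Phc2 and -0.019 to 0.058 for Asxl1. The causes were not tested. Depth limits the genes with few reads most, and 1 female control limits every value given with the sex term.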
